A study of Rattus norvegicus with 31 samples.

Results

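The genes of testosterone synthesis were followed step by step, from cholesterol uptake to the last enzyme of the pathway, in testes of irradiated rats. The set held 10 genes: Scarb1, Tspo and Star for cholesterol delivery, Cyp11a1 and its electron donor Fdx1, and Hsd3b1, Cyp17a1, Cyb5a, Por and Hsd17b3 for the later steps. They were chosen by gene symbol in the platform annotation. They are 10 of the 14217 genes with a single symbol there, and are read by 14 of 31042 probe sets. Where several probe sets carried a gene's symbol, the one with the highest mean over the 31 arrays was used as the main one, and the others were set beside it.

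Testicular RNA of LBNF1 rats aged 25 to 27 weeks was hybridised to Affymetrix arrays, 1 array per biological replicate, and the labels record 6 Gy of irradiation to the lower abdomen for every group. The estradiol-plus-ablation group (6 arrays) received a GnRH antagonist, an androgen receptor antagonist and estradiol. Its labels also call the treatment FSH supplementation, and no dose or duration was given for any agent. The ablation group (11 arrays) received a GnRH antagonist and flutamide, an androgen receptor antagonist. The sham group (14 arrays) was sham-treated. One label field describes 10 of the sham arrays as control testes and 4 as irradiated testes, although the treatment fields give irradiation for all 14. The 6 estradiol arrays come from a later deposit than the other 25, so the deposit and the estradiol treatment cannot be told apart.

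Testosterone is made by Leydig cells, which lie between the seminiferous tubules and are driven by luteinising hormone (LH) from the pituitary through cAMP. A GnRH antagonist lowers LH release, and estradiol lowers gonadotropin release by feedback. Cholesterol is taken up at the cell surface, passed to the inner mitochondrial membrane and cleaved there to pregnenolone, and enzymes of the endoplasmic reticulum then turn pregnenolone into testosterone. All values below are deposited signals on a scale read as log2, on which a difference of 1 is a doubling. A difference was called at an adjusted p under 0.05 in limma, adjusted over the 21269 probe sets kept by a filter on dim values. The filter required a signal above the 40th percentile of its own array in at least 6 arrays, and all 14 member probe sets passed it.

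With estradiol added to ablation, 2 of 10 genes were called against ablation alone, Cyp17a1 and Cyp11a1, both lower, where 5.52% of all tested probe sets were called either way, 4.92% lower and 0.592% higher. The other 8 genes were not called, and the median difference over the 10 genes was 0.10, against -0.03 over all probe sets tested. Under ablation, all 10 genes were called against sham, 9 lower and Hsd3b1 higher, where 19.4% of all tested probe sets were called, 10.3% lower and 9.15% higher. Their median difference was -1.08, against 0.02 over all probe sets tested. Between estradiol plus ablation and sham, 7 of 10 genes were called, 6 lower and Hsd3b1 higher, where 14.5% of tested probe sets were called, 10.4% lower and 4.15% higher. Estradiol plus ablation against sham shares its arrays with the other comparisons. In whole-testis RNA, fewer Leydig cells and less of a transcript per Leydig cell cannot be told apart.

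**Figure D1:**
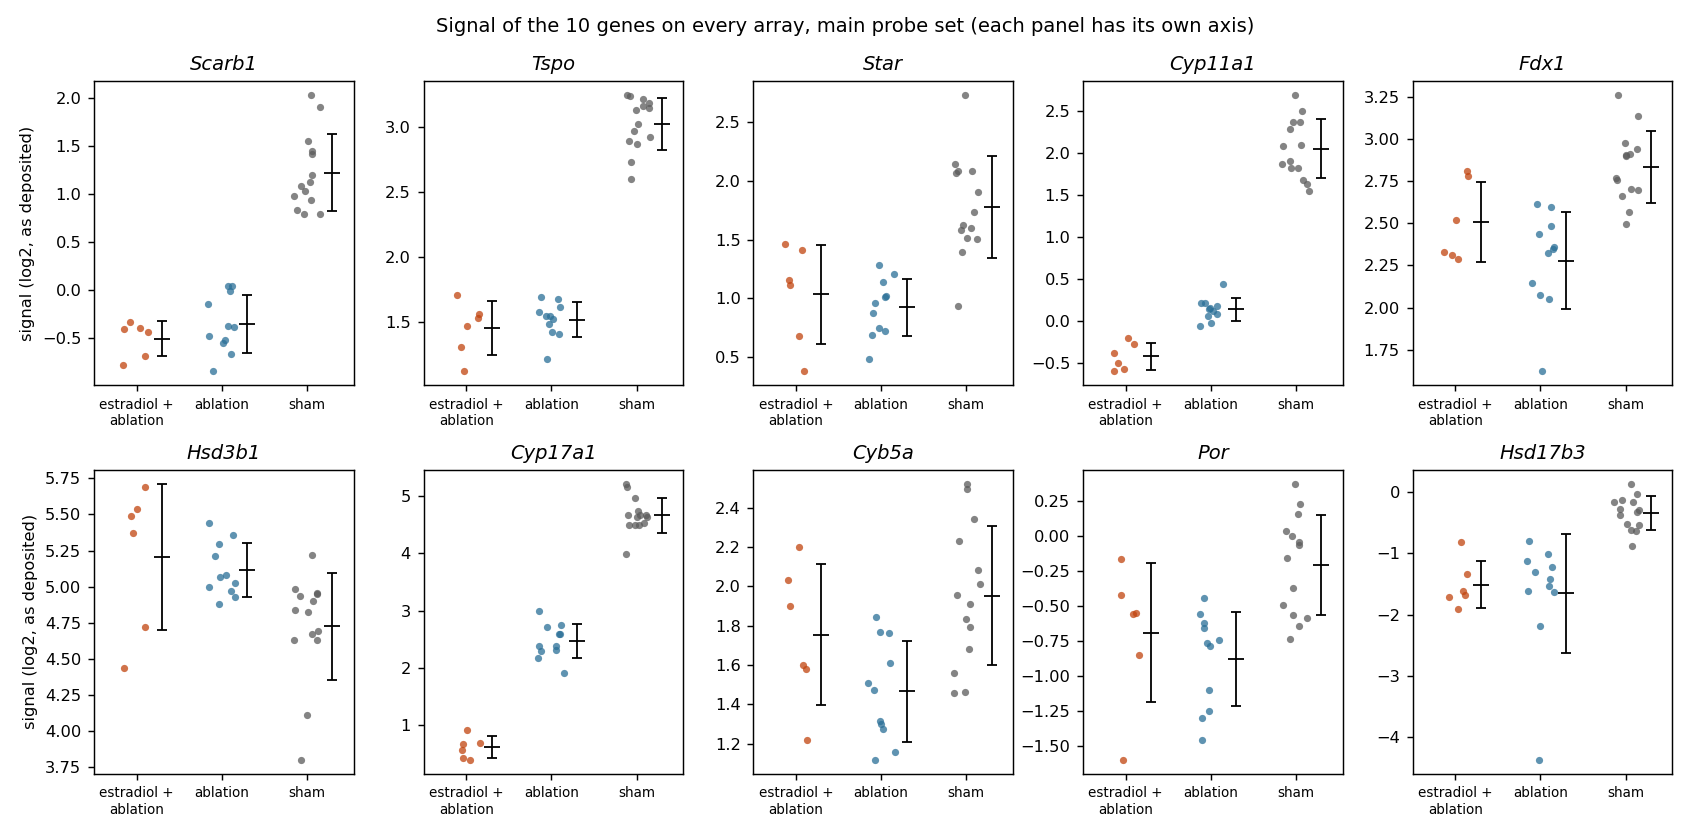
Deposited log2 signal of the main probe set of each of the 10 genes, with 1 point per array, for 6 estradiol-plus-ablation, 11 ablation and 14 sham arrays; bars give the mean ± SD, and each panel has its own vertical axis. Cyp17a1 forms 3 separate bands, with estradiol-plus-ablation arrays between 0.39 and 0.91, ablation arrays between 1.92 and 2.99 and sham arrays between 3.99 and 5.22.

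Scarb1 encodes the scavenger receptor through which Leydig cells take cholesterol esters from high-density lipoprotein, a main source of cholesterol for steroid synthesis in rodents. Its lowest, median and highest signals were -0.79, -0.425 and -0.34 in the estradiol-plus-ablation arrays, -0.85, -0.39 and 0.04 in the ablation arrays, and 0.79, 1.11 and 2.04 in the sham arrays. On this main probe set, all 17 arrays with ablation lay below every sham array, and the 2 ablated groups overlapped. Scarb1 fell by 1.58 ± 0.13 (SE) on the log2 scale in ablation arrays against sham arrays, a 3.00-fold difference (limma, adjusted p = 3.52e-12). With estradiol added, the difference from ablation was -0.15, with a 95% interval of -0.48 to 0.17 (limma, adjusted p = 0.699). The other Scarb1 probe set gave -1.43 for ablation against sham (limma, adjusted p = 1.44e-06) and 0.05 for estradiol plus ablation against ablation (limma, adjusted p = 0.953). On that probe set ablation and sham overlapped, with 9 of 11 ablation arrays below every sham array.

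Tspo encodes the translocator protein of the outer mitochondrial membrane, long studied as a cholesterol carrier in steroid-making cells. The lowest, median and highest Tspo signals were 1.12, 1.5 and 1.71 in the estradiol-plus-ablation arrays, 1.21, 1.54 and 1.69 in the ablation arrays, and 2.6, 3.08 and 3.25 in the sham arrays. The ablated groups overlapped almost fully, and both lay wholly below the sham arrays. Tspo fell by 1.51 ± 0.08 (SE) under ablation against sham, which left 35.2% of the sham signal (limma, adjusted p = 1.89e-17). The difference with estradiol was -0.07, and its 95% interval of -0.27 to 0.13 was the narrowest of the 10 genes.

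Star encodes the steroidogenic acute regulatory protein, which moves cholesterol to the inner mitochondrial membrane and whose transcription responds quickly to LH in Leydig cells. The lowest, median and highest signals of Star were 0.38, 1.135 and 1.46 in the estradiol-plus-ablation arrays, 0.48, 0.96 and 1.28 in the ablation arrays, and 0.93, 1.68 and 2.73 in the sham arrays. On the main probe sets, unlike Scarb1 and Tspo, Star overlapped between sham and both ablated groups. Sham replicate 3, at 0.93, lay below the median of either ablated group. Star fell by 0.86 ± 0.14 (SE) under ablation against sham (limma, adjusted p = 1.95e-05). The difference with estradiol added was 0.11, with a 95% interval of -0.25 to 0.47 (limma, adjusted p = 0.817), and estradiol plus ablation differed from sham by -0.75 ± 0.17 (SE) (limma, adjusted p = 0.00181). The other Star probe set fell further under ablation, by 1.37, with every ablation array below every sham array (limma, adjusted p = 4.32e-08), and it gave 0.11 for estradiol plus ablation against ablation.

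Cyp11a1 encodes the side-chain cleavage enzyme of the inner mitochondrial membrane, which turns cholesterol into pregnenolone, the first committed step. Cyp11a1 had lowest, median and highest signals of -0.60, -0.44 and -0.21 in the estradiol-plus-ablation arrays, -0.07, 0.15 and 0.43 in the ablation arrays, and 1.54, 1.99 and 2.69 in the sham arrays. The 3 groups did not overlap at any point. Relative to ablation, estradiol plus ablation fell by 0.56 ± 0.13 (SE) on the log2 scale, in all 6 arrays (limma, adjusted p = 0.00529), and left 67.8% of the ablation signal. Relative to sham, ablation fell by 1.91 ± 0.10 (SE), in all 11 arrays (limma, adjusted p = 6.09e-17). The 2 differences together put estradiol plus ablation at 18.0% of the sham signal. The call between the ablated groups was lost in a setting chosen after seeing the data, which left out every array with a signal of Prm1, a protamine gene of late germ cells, above the filter level. It kept 6 estradiol-plus-ablation and 3 ablation arrays, and the difference was -0.61 (limma, adjusted p = 0.161).

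Fdx1 encodes ferredoxin, the iron-sulfur protein that carries electrons to the side-chain cleavage enzyme. For Fdx1 the lowest, median and highest signals were 2.29, 2.425 and 2.81 in the estradiol-plus-ablation arrays, 1.62, 2.35 and 2.62 in the ablation arrays, and 2.50, 2.83 and 3.26 in the sham arrays. Fdx1 overlapped in every pair of groups. It fell by 0.56 ± 0.10 (SE) under ablation against sham (limma, adjusted p = 6.23e-05). With estradiol added, Fdx1 differed from ablation by 0.23, with a 95% interval of -0.02 to 0.48, and from sham by -0.33, with an interval of -0.57 to -0.09 (limma, adjusted p = 0.370 and 0.0604). Leaving out sham replicate 3 or 8, or estradiol-plus-ablation replicate 1 or 3, brought the difference from sham to a call, at -0.39 to -0.35 (limma, adjusted p between 0.034 and 0.04424). A second Fdx1 probe set was dim, below the filter level in 6 of 6 estradiol-plus-ablation arrays and 9 of 11 ablation arrays, and made no call.

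The RefSeq promoter windows of the 5 genes that fell under ablation and for which one was found are shown, in pathway order. Each runs from 250 bases before to 50 after the start site assigned to the window in the rat assembly GRCr8, in the direction of transcription. For Por and Cyb5a that site lies inside the gene's span (chr12:26587674-26655612 and chr18:80487923-80520544) and not at its upstream end. Capitals mark each match, on either strand, to AGGTCA, the core that many nuclear receptors bind. Windows were found for 6 of the 10 genes: Cyp11a1, Fdx1, Hsd3b1, Cyb5a, Por and Hsd17b3.
Cyp11a1 (chr8:67318415-67318714, plus strand): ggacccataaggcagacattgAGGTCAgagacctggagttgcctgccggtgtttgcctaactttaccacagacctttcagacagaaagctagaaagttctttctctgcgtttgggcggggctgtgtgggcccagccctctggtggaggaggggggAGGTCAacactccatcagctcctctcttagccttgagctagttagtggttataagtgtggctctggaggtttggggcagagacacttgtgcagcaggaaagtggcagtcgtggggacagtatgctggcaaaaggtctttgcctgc
Fdx1 (chr8:61183596-61183895, minus strand): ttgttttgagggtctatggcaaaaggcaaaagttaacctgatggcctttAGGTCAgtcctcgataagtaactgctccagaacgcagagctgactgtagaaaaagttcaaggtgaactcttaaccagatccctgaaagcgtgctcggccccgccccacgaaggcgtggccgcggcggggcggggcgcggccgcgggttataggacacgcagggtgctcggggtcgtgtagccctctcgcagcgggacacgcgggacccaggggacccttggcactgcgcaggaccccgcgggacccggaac
Cyb5a (chr18:80487759-80488058, plus strand): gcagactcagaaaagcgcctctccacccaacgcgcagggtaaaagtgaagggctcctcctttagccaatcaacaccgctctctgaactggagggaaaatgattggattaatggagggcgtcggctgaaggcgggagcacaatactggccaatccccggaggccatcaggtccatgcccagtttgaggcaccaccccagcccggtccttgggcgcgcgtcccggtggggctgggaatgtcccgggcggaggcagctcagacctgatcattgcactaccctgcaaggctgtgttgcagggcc
Por (chr12:26635760-26636059, minus strand): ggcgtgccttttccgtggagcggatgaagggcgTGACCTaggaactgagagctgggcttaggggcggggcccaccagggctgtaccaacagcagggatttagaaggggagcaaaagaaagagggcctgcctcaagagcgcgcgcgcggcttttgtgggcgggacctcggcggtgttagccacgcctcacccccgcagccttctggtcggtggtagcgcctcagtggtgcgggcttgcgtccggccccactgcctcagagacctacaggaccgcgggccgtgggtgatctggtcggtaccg
Hsd17b3 (chr17:1032708-1033007, plus strand): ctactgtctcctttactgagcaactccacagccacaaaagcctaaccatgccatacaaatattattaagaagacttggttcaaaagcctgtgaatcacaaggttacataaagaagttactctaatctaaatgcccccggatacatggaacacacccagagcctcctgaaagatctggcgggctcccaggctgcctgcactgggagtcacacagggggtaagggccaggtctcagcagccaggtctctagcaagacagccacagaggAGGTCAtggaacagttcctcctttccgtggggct
The Cyp11a1 window holds AGGTCA at positions -229 and -95, the Fdx1 window at position -201, the Por window at position -217 and the Hsd17b3 window at position 17, counted from the start site by the 5′ base of the match. In the Por window the match is on the other strand and reads TGACCT. The window of Cyb5a, which also fell, holds none. Neither does that of Hsd3b1, whose probe set rose but is of uncertain identity within its family. AGGTCA was thus in 4 of 6 member windows and in 16.2% of all 33469 promoter windows of the same length, and this motif was added to the search after the sequences had been seen. The longer AAGGTCA, which contains it and is the binding motif known for Nr5a1 (steroidogenic factor 1), was in 0 of 6 member windows and 4.61% of all windows. TGACGTCA, the full cAMP response element, was in 0 of 6 and 1.83%. AGATAA or TGATAA, motifs of Gata factors, were in 1 of 6, that of Hsd3b1, and in 18.9% of all windows. These matches describe the letters of the windows, and binding was not measured.

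Hsd3b1 encodes the dehydrogenase and isomerase that turns pregnenolone into progesterone. It was the single gene of the set with a higher signal under ablation. The lowest, median and highest Hsd3b1 signals were 4.44, 5.43 and 5.69 in the estradiol-plus-ablation arrays, 4.88, 5.07 and 5.44 in the ablation arrays, and 3.80, 4.83 and 5.22 in the sham arrays. The groups overlapped widely, and sham replicates 5 and 1, at 3.80 and 4.11, stood below the other 12 sham arrays. Hsd3b1 was 0.39 ± 0.13 (SE) higher in ablation than in sham arrays, a 1.31-fold difference, in all 11 arrays relative to the sham mean (limma, adjusted p = 0.0364). It was 0.48 ± 0.16 (SE) higher in estradiol-plus-ablation than in sham arrays (limma, adjusted p = 0.0390), and differed by 0.09 between the ablated groups, with a 95% interval of -0.25 to 0.44. Single arrays decided both calls. Leaving out sham replicate 1, 5, 9 or 13, or ablation replicate 2, 6, 9 or 11, gave 0.32 to 0.38 for ablation against sham (limma, adjusted p between 0.05003 and 0.06715). Leaving out sham replicate 1, 9 or 13, or estradiol-plus-ablation replicate 2, 3, 4 or 6, gave 0.39 to 0.48 for estradiol plus ablation against sham (limma, adjusted p between 0.05088 and 0.1409).

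The identity of the Hsd3b1 probe set is uncertain within its family. The platform annotation gives it the Entrez number of Hsd3b1, while RefSeq now assigns the accession it carries to Hsd3b2, a closely related paralog. A further probe set carries the symbols Hsd3b3, Hsd3b1 and Hsd3b2 together. Its signal averaged -1.62 ± 0.27 in estradiol-plus-ablation arrays (n = 6), -1.95 ± 0.76 in ablation arrays (n = 11) and -1.58 ± 0.33 in sham arrays (SD, n = 14), close to the filter level, and it was not called in any comparison. The higher signal under ablation is therefore that of a probe set of the Hsd3b family and not of a single resolved gene.

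Cyp17a1 encodes the enzyme with hydroxylase and lyase activity that turns progesterone into androstenedione, the branch point towards androgens. It had the largest difference of the set in each comparison. The lowest, median and highest Cyp17a1 signals were 0.39, 0.615 and 0.91 in the estradiol-plus-ablation arrays, 1.92, 2.39 and 2.99 in the ablation arrays, and 3.99, 4.65 and 5.22 in the sham arrays. The groups formed 3 bands with a gap of about 1 on the log2 scale between neighbours. Relative to ablation, Cyp17a1 fell by 1.85 ± 0.14 (SE) with estradiol in all 6 arrays, a 3.61-fold difference (limma, adjusted p = 2.89e-11). That made Cyp17a1 number 25 of 21269 probe sets when ordered from the most negative difference. Relative to sham, it fell by 2.20 ± 0.11 (SE) under ablation in all 11 arrays, a 4.61-fold difference (limma, adjusted p = 7.88e-18). Estradiol plus ablation stood at 6.00% of the sham signal, a 16.7-fold difference, and ranked number 7 of 21269 (limma, adjusted p = 6.39e-23).

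Cyb5a and Por supply Cyp17a1 with what it needs: Por encodes the reductase that donates electrons to it, and cytochrome b5, encoded by Cyb5a, stimulates its lyase activity. Both genes are used by many cell types besides Leydig cells. Cyb5a had lowest, median and highest signals of 1.22, 1.75 and 2.20 in the estradiol-plus-ablation arrays, 1.12, 1.48 and 1.85 in the ablation arrays, and 1.46, 1.93 and 2.52 in the sham arrays. The main Por probe set had -1.60, -0.555 and -0.16 in the estradiol-plus-ablation arrays, -1.45, -0.76 and -0.45 in the ablation arrays, and -0.73, -0.11 and 0.38 in the sham arrays. For both genes all 3 groups overlapped. Under ablation Cyb5a fell by 0.49 ± 0.12 (SE) and Por by 0.68 ± 0.15 (SE) against sham (limma, adjusted p = 0.00407 and 0.000795).

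With estradiol added, neither partner of Cyp17a1 was called against ablation. The difference was 0.29 for Cyb5a, with a 95% interval of -0.03 to 0.60, and 0.19 for Por, with an interval of -0.18 to 0.56 (limma, adjusted p = 0.360 and 0.672). Against sham, estradiol plus ablation differed by -0.20 for Cyb5a and by -0.49 for Por, neither called (limma, adjusted p = 0.448 and 0.0586). Por was called there on leaving out sham replicate 2, 4, 7 or 11, or estradiol-plus-ablation replicate 1, at -0.59 to -0.51 (limma, adjusted p between 0.0257 and 0.04797). The 2 Por probe sets disagreed there: the other one gave 0.03 against sham (limma, adjusted p = 0.950) and 0.49 against ablation (limma, adjusted p = 0.159). Under ablation against sham it gave -0.46 (limma, adjusted p = 0.0304). The ablation calls of Cyb5a and Por were lost without the arrays whose Prm1 exceeded the filter level, with differences of -0.35 and -0.63 (limma, adjusted p = 0.343 and 0.179). That setting kept 3 ablation and 8 sham arrays.

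Hsd17b3 encodes the testis dehydrogenase that reduces androstenedione to testosterone, the last step. Hsd17b3 had lowest, median and highest signals of -1.90, -1.645 and -0.81 in the estradiol-plus-ablation arrays, -4.37, -1.42 and -0.79 in the ablation arrays, and -0.87, -0.30 and 0.14 in the sham arrays. The ablated groups overlapped sham only at the edge, by 1 array each. Ablation replicate 4, at -4.37, stood far below the next ablation array, at -2.19. In the ablated groups the gene lay close to the filter level, which ran between -1.93 and -1.75 over the 31 arrays: 0 of 6 estradiol-plus-ablation, 2 of 11 ablation and 0 of 14 sham arrays were below it. Hsd17b3 fell by 1.31 ± 0.23 (SE) under ablation against sham (limma, adjusted p = 6.21e-05). Estradiol plus ablation differed from ablation by 0.14, with a 95% interval of -0.45 to 0.74. The sign of that difference rested on replicate 4, without which it was -0.13 (limma, adjusted p = 0.783).

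**Figure D2:**
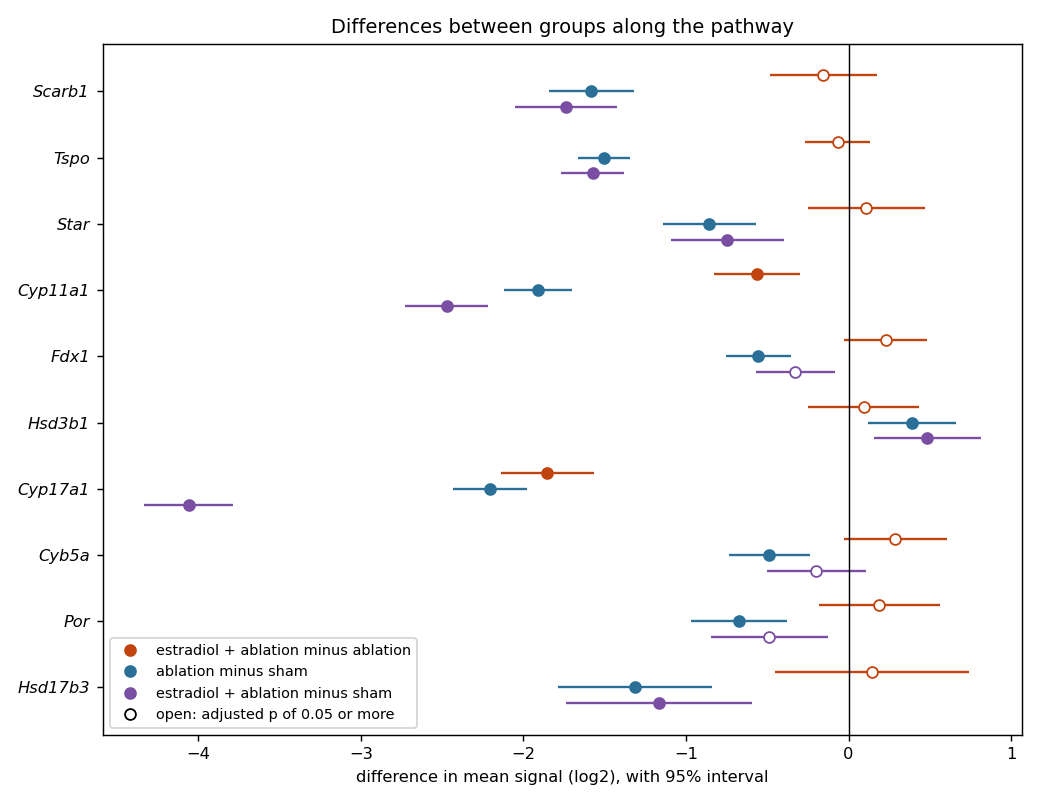
Difference in mean log2 signal between groups for each gene in pathway order, with 95% intervals from limma; filled circles are called and open circles are not. Ablation against sham is below 0 for 9 genes and above 0 for Hsd3b1, while estradiol plus ablation against ablation leaves 0 for Cyp11a1 (-0.56) and Cyp17a1 (-1.85).

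In the order of the differences under ablation, Cyp17a1 stood first, at -2.20 (95% interval -2.43 to -1.98), followed by Cyp11a1 at -1.91 (-2.12 to -1.70). Scarb1 at -1.58, Tspo at -1.51 and Hsd17b3 at -1.31 came next with overlapping intervals. Star, Por, Fdx1 and Cyb5a followed between -0.86 and -0.49, also with overlapping intervals, and Hsd3b1 stood apart above 0. Intervals of neighbours overlapped elsewhere in this order too: Cyp17a1 with Cyp11a1, Cyp11a1 with Scarb1, and Hsd17b3 with Star. The order is that of the main probe sets. The other Star probe set, at -1.37 (-1.70 to -1.04), lay among Scarb1, Tspo and Hsd17b3. On the main probe sets, 4 of 10 genes had no overlap between ablation and sham: Scarb1, Tspo, Cyp11a1 and Cyp17a1. Over all tested probe sets the share was 1.77%. With the other probe sets, Scarb1 overlapped between these groups and Star did not. The same 4 main probe sets had none between estradiol plus ablation and sham, where the share over all tested probe sets was 2.80%. Between the ablated groups, Cyp11a1 and Cyp17a1 had none, where the share over all tested probe sets was 1.55%.

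Whether steps of the pathway, neighbouring or further apart, changed by unequal amounts was tested on differences between 2 genes taken within each array. There were 6 pairs and 3 comparisons, with p-values adjusted over the 18 tests. The pairs were chosen with earlier results of these data known, and the p-values do not account for that choice. A fixed shift of an array cancels in such a difference. The mean of Cyp17a1 minus Star was -0.43 ± 0.44 in estradiol-plus-ablation arrays (n = 6), 1.54 ± 0.44 in ablation arrays (n = 11) and 2.89 ± 0.33 in sham arrays (SD, n = 14). The difference between the ablated groups was -1.96, with all 6 estradiol-plus-ablation arrays below every ablation array (exact permutation test, 2-sided, p = 0.00016, the smallest it can give, adjusted p = 0.00026). Between ablation and sham it was -1.35 (permutation test, adjusted p = 0.00012). Cyp17a1 therefore lost more signal than Star in both comparisons.

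Cyp17a1 also lost more signal than Cyp11a1. Cyp17a1 minus Cyp11a1 was 1.03 ± 0.23 in estradiol-plus-ablation arrays (n = 6) and 2.32 ± 0.33 in ablation arrays (SD, n = 11), a difference of -1.29 (exact permutation test, adjusted p = 0.00026). In sham arrays it was 2.62 ± 0.30 (SD, n = 14), and the difference of ablation from sham was -0.29 (permutation test, adjusted p = 0.032). The excess of the Cyp17a1 fall over the Cyp11a1 fall was thus small under ablation and larger with estradiol, and the 2 excesses were not tested against each other. Cyp11a1 minus Star differed by -0.67 with estradiol against ablation alone (exact permutation test, adjusted p = 0.0033), and by -1.06 under ablation against sham (permutation test, adjusted p = 0.00012). With the other Star probe set, a check added after seeing the data, the differences under ablation shrank to -0.54 for Cyp11a1 minus Star and -0.84 for Cyp17a1 minus Star, and both still passed (permutation tests, adjusted p = 0.008 and 0.0014).

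Hsd17b3 differed by less than Cyp17a1, and Hsd3b1 did not share the falls of Cyp11a1. Between the ablated groups Hsd3b1 itself differed by 0.09, which was not called, and Cyp11a1 by -0.56. Hsd17b3 minus Cyp17a1 was 2.00 higher with estradiol than with ablation alone (exact permutation test, adjusted p = 0.00026) and 0.89 higher under ablation than in sham arrays (permutation test, adjusted p = 0.0064). With values below the filter level raised to it the differences were 1.74 and 1.15 (permutation tests, adjusted p = 0.00024 and 9e-05). The signal of Hsd17b3 in ablated arrays was near that level, which limits how large a fall could be read, so the size of its shortfall against Cyp17a1 is uncertain. Hsd3b1 minus Cyp11a1 was 0.65 higher with estradiol than with ablation alone (exact permutation test, adjusted p = 0.0047) and 2.30 higher under ablation than in sham arrays (permutation test, adjusted p = 0.00012), for a probe set that does not resolve the Hsd3b family. Scarb1 minus Star differed by -0.27 between the ablated groups, which did not pass (exact permutation test, adjusted p = 0.27), and by -0.73 between ablation and sham (permutation test, adjusted p = 0.00069). That last difference depended on the probe set, and with the other Star probe set it was -0.22 (permutation test, adjusted p = 0.27). Between estradiol plus ablation and sham all 6 pairs passed, with -3.31 for Cyp17a1 minus Star and 2.96 for Hsd3b1 minus Cyp11a1 (exact permutation test, adjusted p = 0.00012 each). Scarb1 minus Star there was -0.99 (exact permutation test, adjusted p = 0.00071), and did not pass with the other Scarb1 probe set, at -0.64 (exact permutation test, adjusted p = 0.074).

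**Figure D3:**
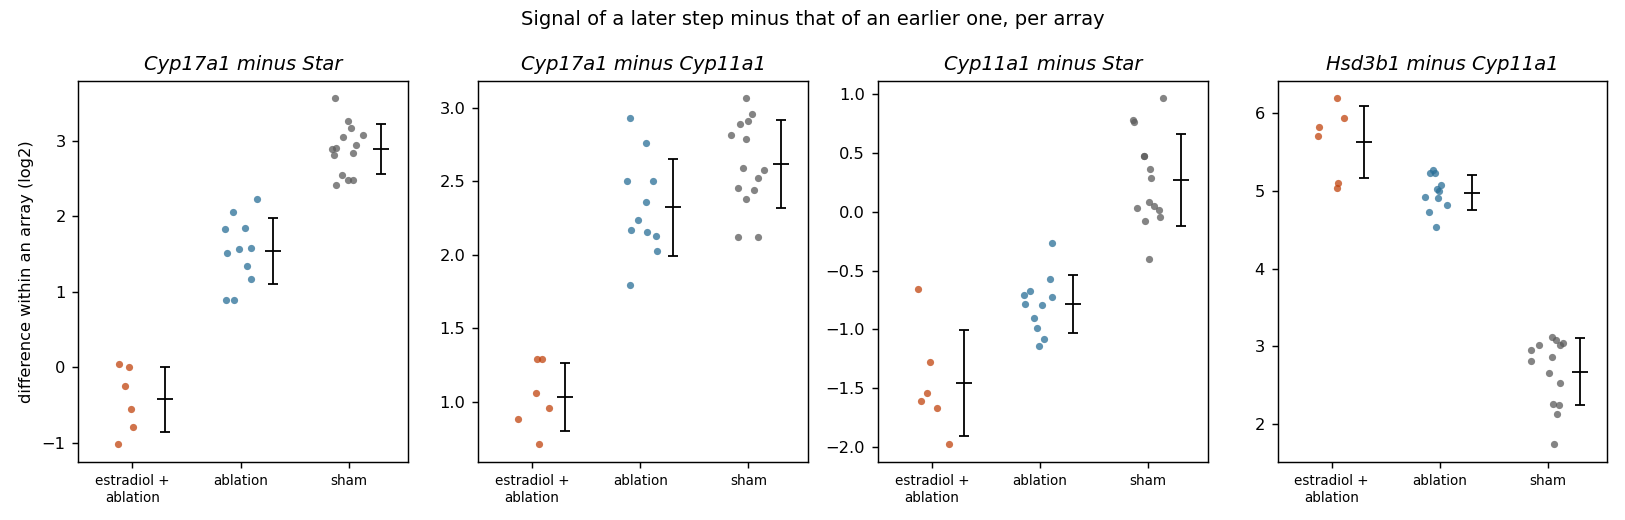
Within-array difference in log2 signal between a later and an earlier step for 4 pairs of genes, 1 point per array, with bars for the mean ± SD. Cyp17a1 minus Star averages -0.43 in estradiol-plus-ablation arrays, 1.54 in ablation arrays and 2.89 in sham arrays, and Hsd3b1 minus Cyp11a1 runs the other way.

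The 4 sham arrays described as irradiated and the 10 described as control overlapped in all 10 genes. Cyp17a1 averaged 4.81 ± 0.30 in the arrays described as irradiated (n = 4) and 4.61 ± 0.30 in those described as control (SD, n = 10). Star averaged 2.09 ± 0.03 in the arrays described as irradiated (n = 4) and 1.65 ± 0.46 in those described as control (SD, n = 10). Its overlap rested on sham replicate 10, described as control, at 2.73. The next highest array described as control, at 1.91, lay below the lowest described as irradiated, at 2.07.

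Variation among arrays of a single group was only loosely shared along the pathway. After the group mean was taken out, Pearson's r over 31 arrays had a median of 0.22 over the 45 pairs of genes and ran between -0.43 and 0.58. The pairs share each array's RNA amount and scaling, so these values are a description. Scarb1 and Cyp11a1 had the highest r, 0.58. Within groups it was -0.37 in the 11 ablation arrays and 0.87 in the 14 sham arrays. Scarb1 and Cyp17a1 had 0.52, with 0.50 in ablation and 0.62 in sham arrays. Cyb5a and Por had 0.44, and the lowest r was that of Hsd3b1 and Cyb5a, -0.43.

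**Figure D4:**
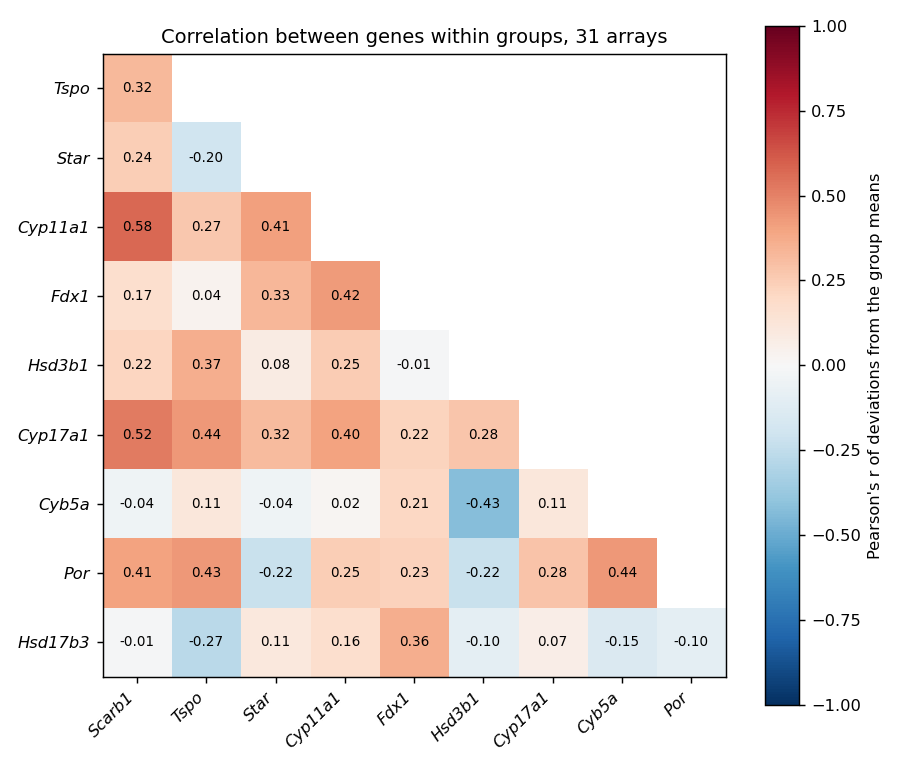
Pearson's r between genes of the pathway over 31 arrays, computed on deviations from the group means, with red for positive and blue for negative values. The highest square is Scarb1 with Cyp11a1 (0.58) and the lowest is Hsd3b1 with Cyb5a (-0.43).

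The genes outside the set whose deviations were most like those of a member differed between members. For Cyp17a1 they were Ass1 (argininosuccinate synthase, r = 0.71), Hao2 (hydroxyacid oxidase, r = 0.64) and Ces1d (a carboxylesterase used here as a Leydig cell marker, r = 0.64), over 31 arrays. Ass1 and Ces1d fell in both comparisons, Ass1 by 0.78 with estradiol against ablation and by 3.13 under ablation against sham (limma, adjusted p = 0.000108 and 3.90e-23). Hao2 was higher by 0.76 with estradiol than with ablation alone and fell by 1.35 under ablation against sham (limma, adjusted p = 3.78e-05 and 5.25e-14). For Cyp11a1 they were Msmp, Hacd3 and Steap1 (r of 0.67, 0.66 and 0.65), and for Scarb1 Dnaaf1, Hacd3 and Gsdmd (r of 0.64, 0.63 and 0.61). For Hsd3b1 they were Ctnnb1 (beta-catenin), Itm2b and Cldn11 (a tight junction protein of Sertoli cells), with r of 0.92, 0.91 and 0.89, and none of these was called in any comparison. All are bright: Hsd3b1 averaged 4.96 over the 31 arrays, and the others 4.33, 5.35 and 5.48. Sham replicates 5 and 1, lowest for Hsd3b1, also had the lowest top signals of the sham arrays, 4.70 and 5.07. Whether scaling at the bright end is what these genes share was not tested.

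For the remaining members the most like genes were not steroid enzymes. Star went with Eif4g2, Serp1 and Parp9 (r of 0.81, 0.80 and 0.78), Tspo with Pmm1, Igfbp6 and Apoe (0.76, 0.73 and 0.73) and Fdx1 with Bcas2, Cfdp1 and Mtch2 (0.84, 0.83 and 0.83). Por went with Pgd, Oxa1l and Vwa1 (0.75, 0.73 and 0.72), Cyb5a with Arhgap32, Aox1 and Nudt22 (0.71 each) and Hsd17b3 with Lgmn, Uba7 and Pvr (0.83, 0.78 and 0.77). Lgmn, Uba7 and Pvr were dim, with means of -1.96, -1.58 and -2.02 over the 31 arrays. Hsd17b3 itself had 1 array, ablation replicate 4 at -4.37, far below the rest. How far these r rest on that array was not tested.

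Other genes of the pathway were set beside these 10. Counts for these and the following lists are to be read against the shares of all tested probe sets: 4.92% lower and 0.592% higher with estradiol against ablation, 10.3% lower and 9.15% higher under ablation against sham, and 10.4% lower and 4.15% higher for estradiol plus ablation against sham. Of 17 further genes of cholesterol delivery that passed the filter, 0 were called in limma with estradiol against ablation (2 at an unadjusted p under 0.05), 6 were called lower and 0 higher under ablation against sham, and 8 lower and 0 higher for estradiol plus ablation against sham. Cd36, a scavenger receptor and fatty acid transporter, fell by 2.13 ± 0.15 (SE) under ablation (limma, adjusted p = 1.18e-13). Dbi, a binding partner of Tspo, fell by 0.61 and Vdac1, a channel of the outer mitochondrial membrane, by 0.48 (limma, adjusted p = 4.16e-06 and 0.00217). Of 16 entries for other steroid enzymes, 3 were called lower and 0 higher under ablation: Hsd17b10 (-0.88), Hsd3b7 (-0.34) and Hsd17b11 (-0.32). With estradiol against ablation, 0 were called (4 at an unadjusted p under 0.05). The Akr1c3 probe set is entered in that list under both Akr1c3 and Akr1c18. The medians over these lists under ablation were -0.20 for cholesterol delivery and 0.05 for the other enzymes, against 0.02 over all probe sets tested.

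Genes upstream of the pathway were read as further lists. Of 18 genes of hormone input and cAMP signalling, 1 was called with estradiol against ablation (5 at an unadjusted p under 0.05), where 5.52% of all tested probe sets were called. It was the adenylyl cyclase Adcy9, which fell by 1.18 ± 0.24 (SE) (limma, adjusted p = 0.00111) and was below the filter level in 5 of 6 estradiol-plus-ablation arrays. Under ablation 3 of them fell, where 10.3% of all probe sets did, including the prolactin receptor Prlr by 0.89 (limma, adjusted p = 1.16e-06), and 2 rose, where 9.15% did, including the cAMP phosphodiesterase Pde4b by 0.46 (limma, adjusted p = 0.00191). The LH receptor Lhcgr was the other that rose, by 0.35 (limma, adjusted p = 0.0183), and is named here after its values were seen. Of 14 transcription regulators of steroid genes, 1 was called with estradiol against ablation (4 at an unadjusted p under 0.05). It was Cebpb, which rose by 0.67 (limma, adjusted p = 0.00961), and 3 of the 14 rose and 3 fell under ablation. Cebpb itself fell by 0.96 under ablation, and Gata4 rose by 0.31 (limma, adjusted p = 7.68e-07 and 0.0279). Nr5a1, a regulator of most genes of this pathway and also named after its values were seen, was not called: it differed by 0.43 with estradiol against ablation and by -0.27 under ablation against sham (limma, adjusted p = 0.109 and 0.121).

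Markers of Leydig cells and of other cell types moved beside the pathway. Of 10 Leydig cell markers outside the set, 2 fell with estradiol against ablation: Insl3, a peptide hormone of Leydig cells, with a difference of -1.88 ± 0.23 (SE), and Ces1d, with -1.49 ± 0.19 (SE) (limma, adjusted p = 1.16e-06 and 2.51e-06). The other 8 were not called there, and 4 of the 10 markers had an unadjusted p under 0.05. Those not called ran between -0.30 for Pdgfra and 0.43 for Nr5a1, with Hsd11b1 at 0.09, Vcam1 at 0.19 and Lhcgr at 0.11. Under ablation 6 of 10 fell and 1, Lhcgr, rose: the differences were -4.49 ± 0.18 (SE) for Insl3, -3.75 ± 0.15 (SE) for Ces1d and -1.51 ± 0.09 (SE) for Vcam1. The mean level over the 10 markers ran between 0.21 and 0.92 in estradiol-plus-ablation arrays, between 0.73 and 1.21 in ablation arrays and between 2.04 and 2.51 in sham arrays. Insl3 was below the filter level in 3 of 6 estradiol-plus-ablation arrays. The part of Leydig cell number in the falls of the pathway was not tested.

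Among markers of other cells, 8 of 10 macrophage markers and 4 of 7 peritubular myoid markers fell under ablation, and 0 of either list was called with estradiol against ablation (1 macrophage marker and 0 myoid markers at an unadjusted p under 0.05). The macrophage markers' mean level ran between 0.22 and 0.56 in estradiol-plus-ablation arrays, between 0.13 and 0.55 in ablation arrays and between 0.33 and 1.17 in sham arrays. Under ablation 2 of 7 Sertoli cell markers rose, 2 of 6 germ cell markers rose and 2 of 6 endothelial markers fell, where 9.15% of all tested probe sets rose and 10.3% fell. Of the 3 red blood cell genes 0 were called in any comparison in limma (1 at an unadjusted p under 0.05, for estradiol plus ablation against sham), and of the 3 adrenal cortex markers on the array 0 passed the filter. The germ cell gene Prm1 fell by 4.59 with estradiol against ablation (limma, adjusted p = 0.0309), and was above the filter level in 0 of 6 estradiol-plus-ablation, 8 of 11 ablation and 6 of 14 sham arrays. Without those 14 arrays, 6 estradiol-plus-ablation, 3 ablation and 8 sham arrays were left. Then 1 of 10 pathway genes, Cyp17a1, was called with estradiol against ablation, where 192 of all 21269 probe sets were. Under ablation against sham 7 of 10 were called, where 1083 of 21269 were. Whether fewer arrays or germ cell content accounts for the lost calls was not tested.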

How the data were processed

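Per the submitters' processing notes, the authors used MAS5 to make the signals, whose version, scaling target and any further step are not given in the sources used here. The deposited values are logarithmic and were read as log2: over 25 arrays, the spike-in controls rose by 0.86 per doubling of the manufacturer's concentration if read as log2, against 1.25 if read as natural log and 2.87 if read as log10. The 6 estradiol arrays carry 2 decimals and no controls. No normalization or pseudocount was added; array medians ran between -1.44 and -1.24, and all array pairs correlated between 0.848 and 0.974, so no array was a copy of another. For arrays, their number limits the precision. Labels gave the groups. Of 31099 probe sets, 57 controls were left out, and 21269 above the 40th percentile of their array in at least 6 arrays were fitted with limma 3.58.1 in R 4.3.3 (lmFit, eBayes with trend, 2-sided, Benjamini-Hochberg, threshold 0.05, 3 groups in 1 fit), tested on simulated data. Symbols came from the platform annotation: 20826 probe sets had 1 symbol, 436 several and 9780 none. Step differences used permutation tests in scipy 1.17.1, exact where a group had under 10 arrays and with 100000 resamples otherwise. Named genes are the 10 members, up to 4 called genes of smallest adjusted p per list and comparison, and the 3 genes of highest r per member. Promoter windows came from RefSeq (GRCr8). The members, the lists and the pairs of steps were chosen with earlier results of these data known. The alternatives tried were other filters, quantile normalization and median centring, limma without a trend, array weights, a replicate block, raised dim values, fits of fewer groups or sham arrays, other probe sets and leaving out arrays.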

Additional observations from a re-analysis of the deposited data

Results flagged for a closer look

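Of 14 probe sets tested for a single array far from the rest of the 6 estradiol-plus-ablation arrays, 1 stood out: the dim second Fdx1 probe set, which read -4.57 in replicate 1, far below the other 5 arrays. Chance alone flags about 1 in 20 such groups. The probe set was below the filter level in all 6 arrays, and the main Fdx1 probe set showed no such gap.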

How the results depend on the processing

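The calls of Cyp17a1 in all 3 comparisons, of Cyp11a1, Scarb1 and Tspo against sham, and of Star and Hsd17b3 under ablation against sham kept their direction and their side of the threshold under every alternative run. Cyp11a1 with estradiol against ablation lost its call only without the arrays whose Prm1 exceeded the filter level. That setting, chosen after seeing the data, left 6 estradiol-plus-ablation, 3 ablation and 8 sham arrays, with 192 probe sets and 1 member called with estradiol against ablation and 1083 probe sets under ablation against sham. With sham restricted to its 4 arrays labelled irradiated, 2345 probe sets were called under ablation against sham and 1702 for estradiol plus ablation against sham. Leaving out 1 array at a time gave 830 to 1205 probe sets and 2 members with estradiol against ablation, 3724 to 4455 and 9 to 10 under ablation against sham, and 2540 to 3197 and 6 to 9 for estradiol plus ablation against sham.

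Signs turned only for uncalled differences. With estradiol against ablation, the other Scarb1 probe set gave 0.0491, Hsd17b3 gave -0.11 with dim values raised and -0.0923 without the arrays with Prm1, and leaving out 1 array gave -0.00253 to 0.247 for Hsd3b1 and -0.13 to 0.23 for Hsd17b3. Against sham, the other Por probe set gave 0.0285 for estradiol plus ablation. Hsd3b1 under ablation against sham lost its call without a filter, with median centring, with sham arrays of either description alone, without the 2 most extreme arrays on the first principal component and without the arrays with Prm1 (adjusted p of 0.0703, 0.0623, 0.258, 0.0637, 0.113 and 0.480, limma). For estradiol plus ablation against sham it lost its call in the same settings except median centring (adjusted p of 0.0760, 0.209, 0.0597, 0.0598 and 0.179, limma) and with only the compared groups fitted (0.0912). There Fdx1 gained a call with array weights (0.0278), and Por with array weights and with a filter at the 60th percentile (0.0412 and 0.0487). Calls that 1 array decided there were those of Fdx1 (4 of 20 fits), Hsd3b1 (7) and Por (5), and Hsd17b3 lost its call with the 4 sham arrays labelled irradiated alone (adjusted p = 0.0576, limma). The cause was not tested. Scarb1 minus Star lost its call under ablation against sham with the other Star probe set (-0.216) and for estradiol plus ablation against sham with the other Scarb1 probe set (-0.640, adjusted p = 0.074, permutation test), both added after seeing the data. Of calls with estradiol against ablation, 126 were higher and 1047 lower as deposited, 312 and 988 after quantile normalization and 210 and 835 after median centring; against sham, estradiol plus ablation gave 882 higher and 2211 lower as deposited and 1753 and 1963 after quantile normalization.

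Same-numbered arrays did not deviate together in most pairs, so the numbers were not taken to pair them: r ran between -0.18 and 0.06 for estradiol plus ablation with ablation (0 of 6 above 0.1), between -0.01 and 0.38 with sham (3 of 6) and between -0.09 and 0.05 for ablation with sham (0 of 11). With the replicate number as a block, 878 probe sets and 2 members were called with estradiol against ablation, 3185 and 10 under ablation against sham, and 2349 and 7 for estradiol plus ablation against sham. It changed 2 calls of members, both for estradiol plus ablation against sham: Star gave -0.47 (adjusted p = 0.0735, limma) and Por passed (adjusted p = 0.0475, limma).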
